A study of Rattus norvegicus with 36 samples.

Results

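The solute carriers (gene symbols that begin with Slc and a digit) are described here in the dorsal root ganglia of rats, which house the somata of sensory neurons together with glia. Members were all probe sets whose platform annotation gave a single gene with such a symbol, with Slc1a2, Slc1a3, Slc4a1 and Slc6a2 left out. There were 356 such probe sets for 234 genes among 26379 probe sets in all, 168 on chip type A, 96 on B and 92 on C. Of these, 231 probe sets for 171 genes were bright enough to be tested, and 125 probe sets were not, which left 63 genes with no tested probe set. A symbol is not proof of transport: Slc3a1 and Slc3a2 are chaperone subunits of amino acid exchangers, and Slc4a1ap and Slc7a6os match the rule by name alone.

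Solute carriers move ions, nutrients, metabolites and transmitters across membranes by facilitated diffusion, exchange, or coupling to sodium, proton or other ion gradients set up by pumps. Sensory neurons depend on them for several tasks. Cation-chloride cotransporters set the chloride gradient on which GABA acts, vesicular carriers fill synaptic vesicles with glutamate or amines, exchangers extrude calcium and protons, and the Slc25 carriers link the mitochondrial matrix to the cytosol. Satellite glia and Schwann cells in the same ganglion use further members to clear transmitters and supply fuel.

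The study modelled neuropathic pain in rats by ligation: the spinal nerve of the L5 ganglion is tied and the L4 ganglion beside it keeps its own nerve. Total RNA was measured in 6 pools of ganglia on 3 chip types of the Affymetrix RG_U34 set: L5 ganglia and L4 ganglia of rats with L5 ligation, and ganglia of sham-operated rats, each collected at 28 and at 50 days. Where the labels state how many rats made up a pool, it is 30; sham pools mixed both ganglion levels, L4 with L5, and neither strain, sex nor age is given in the labels. Each pool was hybridised to 2 arrays of each chip type, and those arrays share RNA. By the design text there is no biological replication because of the pooling, so the 2 days stood as the 2 replicates of a condition, and the p-values measure only the spread between these pools.

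Median signals ran from 50.7 to 92.1 over the arrays, and both arrays of a pool correlated across tested probe sets at r = 0.880 to 0.958. One chip B array carries a title of sham at 28 days and a description of 50 days; it was kept by its title. Neuron markers were bright in every pool, with a summed signal over 11 genes of 38811 to 51705. On the mean of both days 10 of the 11 lay below sham in L5 (90.9%, against 46.3% of all probe sets tested). Their median log2 difference was -0.19. Only 4 of the 11 lay below sham at both days, and 6 had opposite signs at the 2 days. All 11 were in the brightest of 3 level groups, where 58.4% of all probe sets lay below sham. Rbfox3 (-0.97) and Isl1 (-0.78) were furthest below, and Nefl lay above (0.26). The 28-day L5 pool stood apart in markers of other cells: the 10 macrophage markers summed to 5891 there against 1602 to 2105 in the other 5 pools, and 11 skeletal muscle markers to 3731 against 1107 to 2246; none of these markers was at 0. The 50-day L5 pool had the highest sum of 2 fat cell markers (1426 against 769 to 886), most of it Lep (1312). Lpl gave 114 there and 103 in the 50-day L4 pool. Of 7 fat cell markers listed only these 2 were tested. The 4 satellite glia markers summed to 8516 and 7698 in the L5 pools against 5685 to 6131 in the others, most of it Apoe. These markers did not move together. In L5 Apoe (0.48) and Glul (0.25) lay above sham on the log2 scale, and Fabp7 (-0.87) and Gja1 (-0.09) below. The 4 red blood cell markers summed to 7665 to 10444 at 28 days and 3441 to 4527 at 50 days. The 7 myelinating Schwann cell markers summed to 23502 and 24728 in the L5 pools against 17631 to 22060 in the others. The ratio of the 3′ to the 5′ Gapdh control probe sets on chip A, a sign of RNA length, was 6.18 to 8.54 in sham, 4.89 to 5.97 in L4 and 3.80 to 5.08 in L5. Other ratios did not repeat that order. On chip B the Gapdh ratios of L4 (2.90 to 5.87) overlapped those of L5 (3.47 to 4.68) and sham (5.10 to 8.30). The Actb ratios of L4 on chip A (3.83 to 6.66) overlapped those of L5 (3.84 to 5.47) and sham (5.53 to 5.69). The part of these differences in the results was not tested, and in pooled tissue fewer cells of a type and less RNA per cell cannot be told apart.

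Signals are MAS5 intensities on a linear scale, and paired values are given in the order 28 days, then 50 days. Differences are on a log2(signal + pseudocount) scale, which understates the change of dim genes, with the standard error (SE) of the fit. Adjusted p-values are from limma with Benjamini-Hochberg adjustment over 15721 probe sets, with 0.05 as the threshold. For genes read by more than 1 tested probe set the brightest stands for the gene, and no level is compared between genes. The other probe sets of a gene did not always share its sign.

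No solute carrier probe set passed in ligated L5 against sham. Over all probe sets 120 of 15721 passed (0.763%; 36 higher, 84 lower), and 0 of the 231 solute carrier probe sets did. At an unadjusted p under 0.05, 13 of 231 were higher (5.63%, against 7.47% of all probe sets) and 28 were lower (12.1%, against 9.45%). The L5 pools both lay below both sham pools for 55 member probe sets (23.8%, against 20.5% of all) and above both for 39 (16.9%, against 18.3% of all). These shares are near the background. The median difference was 0.02 over member probe sets and 0.04 over all probe sets, so the carriers as a whole sat at the level of the array.

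The count of 0 differed between settings, and the members' shares moved with those of all probe sets. With a pool left out its condition keeps 1 pool, which is assumed to vary like the other groups. Without the 28-day or without the 50-day L4 pool, 7 member probe sets passed as lower either way, one each for Slc22a17, Slc25a1, Slc25a3, Slc25a33, Slc4a4, Slc6a15 and Slc9a9, while 407 and 411 probe sets passed in all (3.03% of members either way, against 2.59% and 2.61%). Without the 28-day L5 pool 2 passed as higher and 8 as lower (4.33% of members, against 3.01% of all), and without the 50-day L5 pool 2 and 4 (2.60%, against 3.95%). Centring each array on its median moved the median of all probe sets from 0.04 to -0.09; the split over all probe sets became 44 higher and 369 lower, with 8 members lower (3.46% of members called, against 2.63% of all). Scaling to the hybridisation controls moved that median to -0.44 and the split to 34 and 2906, with 50 members lower (21.2%, against 18.7%), and quantile normalization gave 17 and 24 with 0 members.

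**Figure D1:**
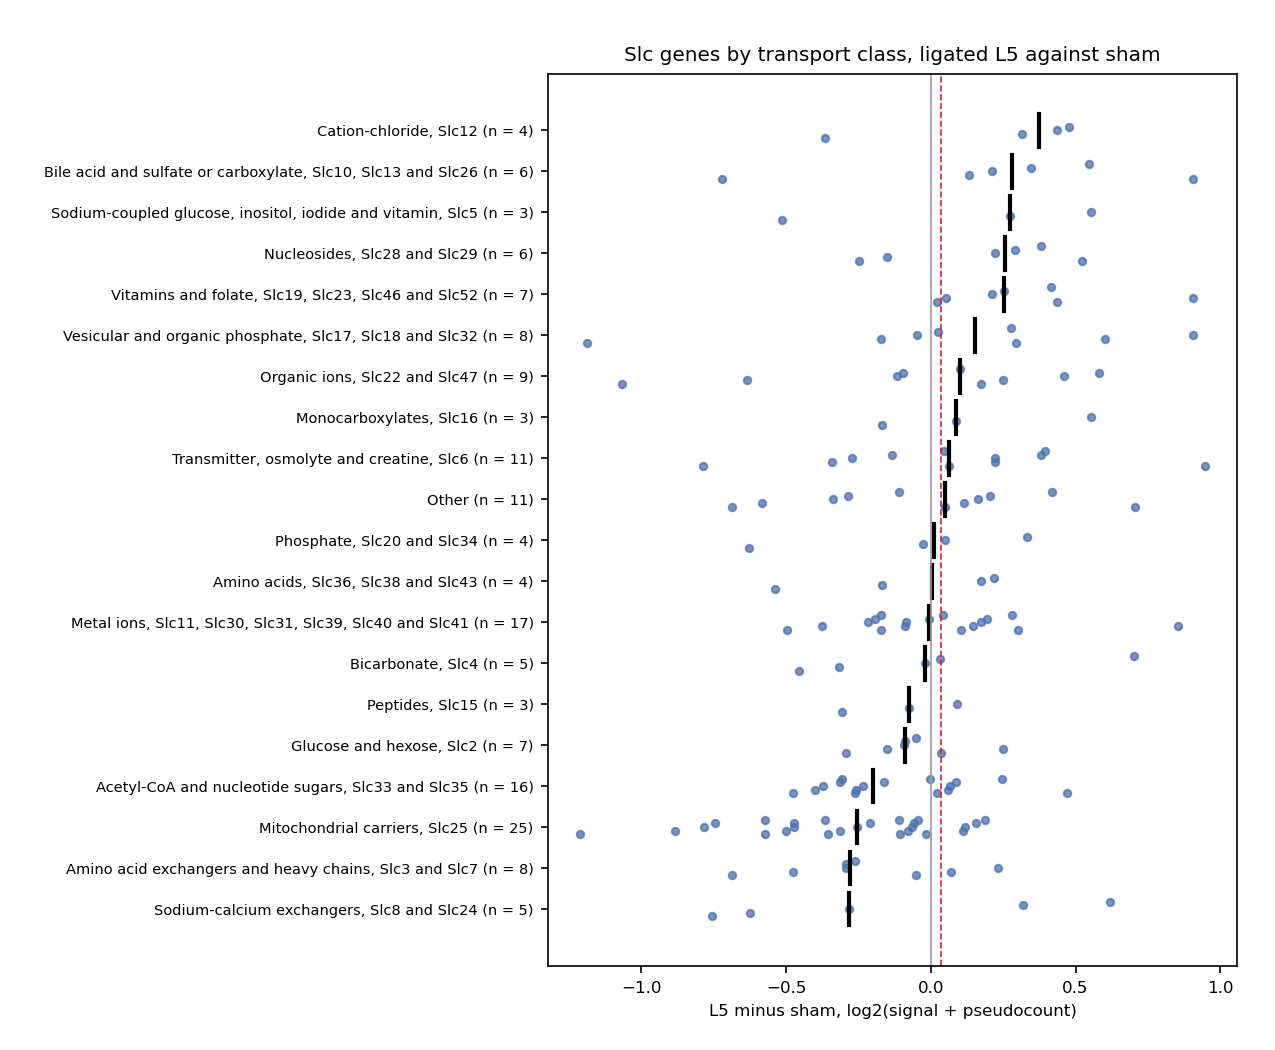
Difference between ligated L5 and sham on the log2(signal + pseudocount) scale for each tested solute carrier gene (points, brightest probe set), by transport class with at least 3 tested genes. Black bars mark class medians and the dashed line the median of all probe sets tested (0.04). Points of each class scatter on both sides of 0 in all classes but the vitamin and folate class. There all 7 lay above 0, as 8447 of 15721 probe sets did (Slc23a2 was below 0 under median centring, quantile normalization and control scaling). Slc25, with the most genes, had 21 of 25 below 0 (84%, against 46.3% of all probe sets).

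Slc9a9 and Slc3a1 passed in L5 against L4, both lower in the ligated ganglion. In that comparison 199 of 15721 probe sets passed (1.27%), and the 2 members are 0.866% of those tested, a share near the background. L5 and L4 differ in ganglion level as well as in ligation. Because the sham pools mixed both levels, level and ligation cannot be told apart in this comparison. L5 against sham and L4 against sham each set 1 level beside a mix of both, so level is not separated there either. Slc9a9 encodes a sodium-proton exchanger of endosomes, which counters their acidification. Its signals were 568 and 620.1 in sham, 667 and 659 in L4, and 274 and 348 in L5. Both L5 pools lay below all 4 other pools, with no overlap. Slc9a9 was lower than in L4 by -1.06 ± 0.17 (SE; adjusted p = 0.035), and its difference from sham was -0.91 ± 0.17 (adjusted p = 0.058), just outside the threshold. L4 and sham differed by 0.15 ± 0.17. Its other 2 probe sets were too dim to test.

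Slc3a1 encodes the heavy chain rBAT, which brings the cystine and basic amino acid exchanger to the plasma membrane. Its signals were 1513 and 986 in sham, 1749 and 1348 in L4, and 1053 and 726 in L5. At each day the L5 pool was the lowest of the 3, but the 28-day L5 pool lay above the 50-day sham pool, so L5 and sham overlapped. The difference from L4 was -0.80 ± 0.17 (adjusted p = 0.047), and that from sham -0.48 ± 0.17 (adjusted p = 0.198).

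Neither call was stable. Both genes missed the threshold under quantile normalization (adjusted p = 0.057 for Slc9a9 and 0.099 for Slc3a1), with no filter on dim probe sets (0.063 and 0.087), without limma's intensity trend (0.145 and 0.186), with 1 array a pool, and without the 28-day (0.161 and 0.064) or the 50-day L4 pool (0.053 and 0.153). Slc3a1 also missed it with the doubly labelled array left out (0.051) and with the pseudocount at the 50th percentile. Both differences stayed negative in all 19 alternatives.

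**Figure D2:**
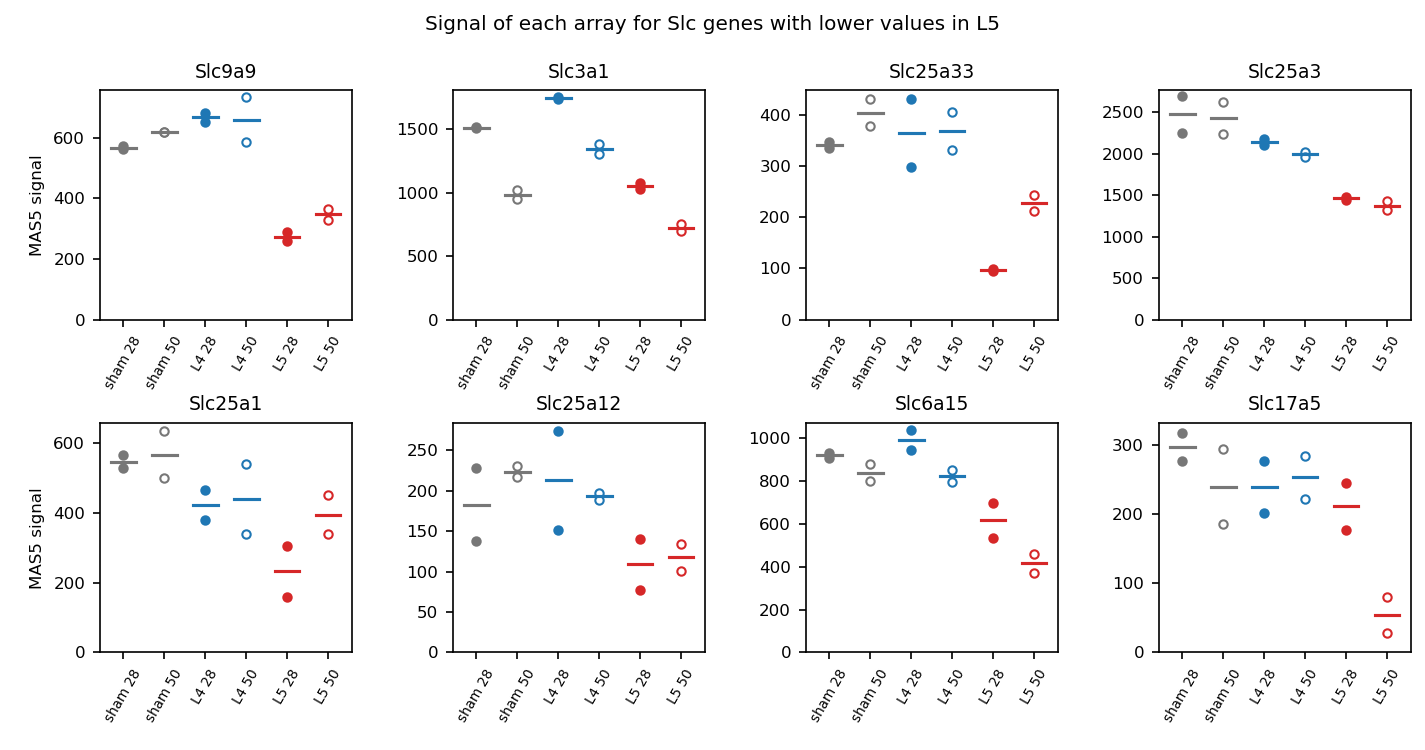
MAS5 signal (linear, from 0) on each of the 2 arrays of each pool (points; filled at 28 days, open at 50 days) and the mean of the arrays (line), for 8 solute carrier genes with lower values in L5. Slc9a9 lies at 274 and 348 in the L5 pools and at 568 or more in the other pools; Slc17a5 is lowest in the 50-day L5 pool alone, at 54.3.

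The promoters of both called genes, and of 2 mitochondrial carriers described next, are shown: Slc9a9 and Slc3a1 for their calls against L4, and Slc25a3 and Slc25a33 as Slc25 members whose L5 pools both lay below the other 4. The pair from Slc25 was picked after values were seen. Each runs from 250 bases before to 50 bases after the RefSeq start in GRCr8, in transcript direction, and capitals mark a match to a searched motif. The coordinates are chr8:104112285-104112584, plus strand for Slc9a9, chr6:15394700-15394999, minus strand for Slc3a1, chr7:27506578-27506877, minus strand for Slc25a3, and chr5:165502924-165503223, minus strand for Slc25a33.
Slc9a9: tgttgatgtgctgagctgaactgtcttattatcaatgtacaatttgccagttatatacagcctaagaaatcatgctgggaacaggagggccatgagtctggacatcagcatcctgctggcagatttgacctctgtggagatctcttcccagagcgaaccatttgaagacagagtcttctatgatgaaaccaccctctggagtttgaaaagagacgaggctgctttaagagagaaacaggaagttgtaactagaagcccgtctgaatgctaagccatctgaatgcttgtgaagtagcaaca
Slc3a1: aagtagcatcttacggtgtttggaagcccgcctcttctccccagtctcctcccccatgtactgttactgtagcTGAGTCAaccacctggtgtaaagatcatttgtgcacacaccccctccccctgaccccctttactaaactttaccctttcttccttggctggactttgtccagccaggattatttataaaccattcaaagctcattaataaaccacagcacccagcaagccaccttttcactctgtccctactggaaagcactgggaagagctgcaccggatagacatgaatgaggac
Slc25a3: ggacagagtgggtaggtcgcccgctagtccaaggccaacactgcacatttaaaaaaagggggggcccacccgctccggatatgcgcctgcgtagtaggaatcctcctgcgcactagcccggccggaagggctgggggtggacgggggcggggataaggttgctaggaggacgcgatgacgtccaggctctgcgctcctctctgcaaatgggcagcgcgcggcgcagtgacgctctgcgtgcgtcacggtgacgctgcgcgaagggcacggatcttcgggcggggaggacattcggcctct
Slc25a33: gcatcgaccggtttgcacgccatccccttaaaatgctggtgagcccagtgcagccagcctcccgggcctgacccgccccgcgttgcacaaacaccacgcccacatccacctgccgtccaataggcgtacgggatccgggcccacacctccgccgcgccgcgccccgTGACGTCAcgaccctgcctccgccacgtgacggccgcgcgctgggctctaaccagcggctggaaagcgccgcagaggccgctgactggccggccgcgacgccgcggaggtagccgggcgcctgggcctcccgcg
The capitals are an AP1 match in Slc3a1 and a CRE match in Slc25a33. Besides the motif of the nuclear respiratory factor NRF1, the searches on both strands covered the cyclic AMP response element CRE TGACGTCA, and the AP1 motif TGANTCA. A CRE match is no AP1 match, since AP1 has 1 letter fewer between its ends. NRF1 was in 12 of 142 promoters of tested solute carriers (8.45%) and 4.71% of all 27457 promoters, and in 0 of 20 Slc25 promoters. CRE was in 4 of 142 (2.82%, against 1.91% of all), 2 of them among the 20 Slc25 promoters. AP1 was in 14 of 142 (9.86%, against 7.33% of all), with 1 among Slc25. A match is a description of the letters alone; the arrays do not measure binding.

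The mitochondrial carriers of the Slc25 family were lower in ligated L5 more often than not, although no member passed the test. Of 30 Slc25 genes given, 25 were tested, and 21 of these had values below sham (84%, against 46.3% of all probe sets). Their median difference was -0.26, against 0.04 over all probe sets, and it was -0.21 at either day. In L4 the median was -0.02. At an unadjusted p under 0.05, 9 of 25 were lower (36.0%, against 9.45% of all probe sets) and 0 higher. Both L5 pools lay below both sham pools for 13 (52.0%, against 20.5% of all) and above them for 2. In L5 against L4 the median was -0.28, with 8 lower at the unadjusted threshold (32.0%, against 10.9% of all); both comparisons share the L5 pools.

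The carriers of phosphate and adenine nucleotides, which feed ATP synthesis, had bright probe sets. Slc25a3, the phosphate carrier, gave 2476 and 2432 in sham, 2141 and 1992 in L4, and 1460.4 and 1375 in L5. Both L5 pools lay below the other 4, and the difference from sham was -0.78 ± 0.17 (adjusted p = 0.061). Slc25a4 and Slc25a5 exchange ADP for ATP across the inner membrane. Slc25a4 gave 2358 and 2838 in sham, 2908 and 2278 in L4, and 1893 and 1841 in L5, a difference of -0.47 ± 0.19 (adjusted p = 0.244). Slc25a5 gave 1622 and 1614 in sham, 1673 and 1442 in L4, and 1105 and 1086 in L5, a difference of -0.57 ± 0.17 (adjusted p = 0.134). For these 3 genes the L5 pools were the lowest of the 6 at both days. Slc25a25, a calcium-activated carrier of ATP-magnesium and phosphate, differed by -0.47 ± 0.18, and Slc25a42, which carries coenzyme A, by -0.50 ± 0.20.

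Slc25a33 carries pyrimidine nucleotides into mitochondria and had the most negative value of all 231 member probe sets. Its signals were 341 and 404 in sham, 364 and 369 in L4, and 97.2 and 227 in L5. The 28-day L5 pool was lowest and the 50-day L5 pool next, both below the other 4. The difference from sham was -1.21 ± 0.26 (adjusted p = 0.071), made of -1.64 at 28 days and -0.78 at 50 days. Its close relative Slc25a36 differed by -0.11 ± 0.20, with -0.46 at 28 days and 0.24 at 50 days. Of 3 tested Slc25a36 probe sets only 1 lay below sham.

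Carriers of metabolites and amino acids lay on both sides of sham. Slc25a1, the citrate carrier that supplies acetyl-CoA for lipid synthesis, gave 546 and 566 in sham, 422 and 438 in L4, and 232 and 395 in L5, a difference of -0.88 ± 0.22 (adjusted p = 0.092). The L4 pools of Slc25a1 lay between, at -0.38, and the 50-day L5 pool was below both of them. Slc25a12, the aspartate-glutamate carrier aralar of the malate-aspartate shuttle, gave 183 and 223 in sham, 213 and 193 in L4, and 109 and 118 in L5, a difference of -0.75 ± 0.21 (adjusted p = 0.119) with no overlap. Slc25a11, the oxoglutarate-malate carrier of the same shuttle, differed by -0.31 ± 0.20, and Slc25a20, which brings in acylcarnitines for fatty acid oxidation, by -0.57 ± 0.21. Of 2 tested Slc25a11 probe sets only the brighter lay below sham, while both tested Slc25a20 probe sets did. The 4 of 25 above sham were Slc25a10, Slc25a13, Slc25a22 and Slc25a26. The dicarboxylate carrier Slc25a10 was at 0.16 ± 0.21, with both L5 pools above both sham pools. Slc25a22, a glutamate carrier, gave 638 and 844 in sham, 623 and 721 in L4, and 708 and 901 in L5 and a difference of 0.12 ± 0.16, and Slc25a26, the S-adenosylmethionine carrier, 0.19 ± 0.24. Slc25a13, the paralogue of Slc25a12, was at 0.11 ± 0.30.

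**Figure D3:**
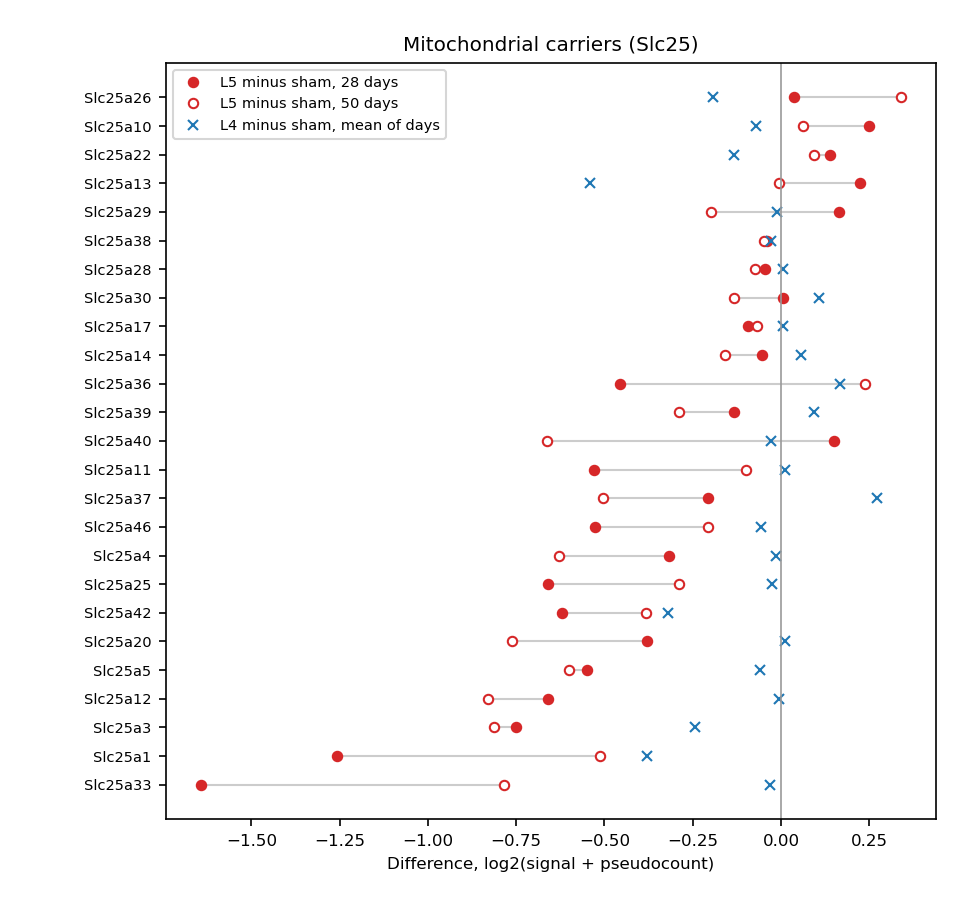
Differences on the log2(signal + pseudocount) scale for the 25 tested Slc25 genes, ordered by their L5 value: L5 minus sham at 28 days (filled circles) and 50 days (open circles), joined by a line, and L4 minus sham (crosses, mean of both days). For 17 genes both circles lie below 0 and for 3 both lie above, while the crosses gather near 0.

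Level moved with these values. Split by mean level into 3 groups of equal size, all tested probe sets had median differences of 0.14 in the dim, 0.06 in the middle and -0.08 in the bright group, and the member probe sets had 0.11, -0.01 and -0.21. Lower values were also more frequent among bright probe sets. Of all 5240 in the bright group, 58.4% lay below sham, 18.1% were lower at the unadjusted threshold and 31.8% had both L5 pools below both sham pools. Of the 25 Slc25 genes 13 were in the bright group, 6 of them lower at that threshold (46.2%) and 10 with both L5 pools below (76.9%). For the 39 other solute carrier genes there these were 9 (23.1%) and 15 (38.5%). Below sham were 11 of those 13 (84.6%) and 24 of those 39 (61.5%). Within that group the median was -0.37 for Slc25 and -0.09 for the 39 others; in the middle group it was -0.08 for 8 and 0.09 for 61. Taking the median over the tested probe sets of each gene in place of the brightest gave a Slc25 median of -0.14, and leaving out a pool gave -0.17 (no 50-day sham) to -0.40 (no 50-day L5), so the size of the value rests in part on the probe set and the pool. The part of level in the Slc25 values was not tested beyond these splits, which were chosen after the values were seen.

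**Figure D4:**
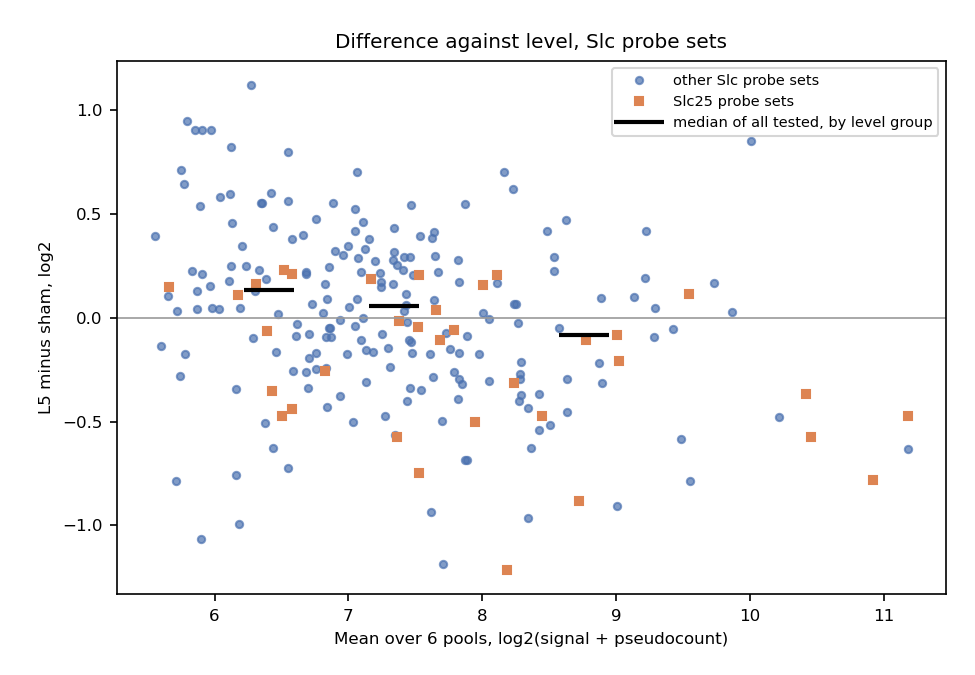
L5 minus sham against mean level over the 6 pools, both on the log2(signal + pseudocount) scale, for the 231 tested member probe sets (orange squares are Slc25, blue circles the rest). Black bars are medians of all tested probe sets by level group, 0.14, 0.06 and -0.08; most orange squares with a level above 8 lie below 0.

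Glucose carriers did not move together. Of 7 tested Slc2 genes 5 lay below sham (71.4%, against 46.3% of all probe sets), none at the unadjusted threshold. Their median was -0.09, with values from -0.29 to 0.25. Slc2a1 encodes GLUT1, the glucose carrier of barrier endothelium and glia. Its brightest probe set gave 887 and 599 in sham, 548 and 721 in L4, and 811 and 609 in L5, and L5 overlapped sham (-0.05 ± 0.22); its 4 probe sets ran from -0.05 to 0.39. Slc2a3, the neuronal carrier GLUT3, gave 347 and 448 in sham, 443 and 439.6 in L4, and 311 and 328 in L5 and -0.29 ± 0.18, with both L5 pools lowest. That is the brighter of 2 tested Slc2a3 probe sets, and only 1 of the 2 lay below sham. Slc2a4, the insulin-responsive GLUT4, was dim at 21.6 and 74.6 in sham, 16.8 and 70.1 in L4, and 55.0 and 32.9 in L5, and the days went opposite ways. Slc2a8, an intracellular hexose carrier, was at -0.09 ± 0.18.

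Lactate and pyruvate pass through Slc16 carriers. Slc16a1, MCT1, gave 210.2 and 158 in sham, 183 and 190.1 in L4, and 236 and 162 in L5 and a difference of 0.09 ± 0.23, with overlap. The dimmer of the 2 tested Slc16a1 probe sets lay below sham. Slc16a3, MCT4, the exporter of glycolytic cells, was dim at 47.9 and 73.7 in sham, 58.7 and 84.2 in L4, and 59.8 and 129 in L5 and differed by 0.55 ± 0.31. Their chaperone Bsg, basigin, was at 0.00 ± 0.18. Among sodium-coupled Slc5 carriers, the multivitamin carrier Slc5a6 differed by -0.51 ± 0.21 and the myo-inositol carrier Slc5a3 by 0.55 ± 0.31. Slc5a6 had 404 and 436 in sham, 359 and 358 in L4, and 232 and 359 in L5; both L5 pools lay below sham, and the 50-day one was level with L4. None of these passed.

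The Slc3 and Slc7 genes encode exchangers of large neutral and basic amino acids with their heavy chains. Of 8 tested, 6 lay below sham (75%, against 46.3% of all probe sets), with a median of -0.28. At the unadjusted threshold 2 did so (25%, against 9.45% of all). Slc7a5, LAT1, gave 329 and 345 in sham, 281 and 310.1 in L4, and 249 and 297 in L5 and a difference of -0.29 ± 0.19. Slc7a7, the exchanger y+LAT1, gave 253 and 281 in sham, 221 and 249.8 in L4, and 192 and 128 in L5 and -0.69 ± 0.22 (adjusted p = 0.164), with both L5 pools lowest. The shared heavy chain Slc3a2 showed 2 patterns. Its brighter probe set gave 432 and 363 in sham, 297 and 439 in L4, and 423 and 319.9 in L5, with all groups overlapping; its dimmer one gave 160.5 and 144 in sham, 232 and 259 in L4, and 107 and 146 in L5, with both L4 pools above the other 4. The dimmer one differed by 0.64 ± 0.24 between L4 and sham, without passing. Slc38a1, a sodium-coupled glutamine carrier of neurons, was at 359 and 390.0 in sham, 371 and 357 in L4, and 276 and 236 in L5; L5 was lowest on both days (-0.54 ± 0.18, adjusted p = 0.181), and its 3 probe sets all lay below sham. Its relative Slc38a2 was at -0.17 ± 0.19. Slc1a1, the neuronal glutamate carrier EAAC1, was dim and at 0.40 ± 0.28.

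The Slc6 family of sodium- and chloride-coupled transmitter, osmolyte and amino acid carriers had 11 tested genes, 7 above and 4 below sham, with a median of 0.06 that turned to -0.13 under median centring. Slc6a15, a carrier of branched-chain amino acids and proline found in neurons, had the lowest value among them. It gave 920.0 and 839.7 in sham, 992 and 822 in L4, and 616 and 417 in L5, and both L5 pools lay below the other 4. The difference was -0.79 ± 0.18 from sham (adjusted p = 0.071) and -0.83 ± 0.18 from L4 (adjusted p = 0.053). The creatine carrier Slc6a8 had 311 and 297 in sham, 256 and 263 in L4, and 311 and 329.9 in L5 and 0.06 ± 0.19, with overlap. The GABA carrier Slc6a11, GAT3 of glia, was at 0.22 ± 0.24, and the taurine carrier Slc6a6 at -0.13 ± 0.47. Slc6a20a, a proline carrier, rested on a dim probe set with 31.0 and 40.5 in sham, 49.6 and 48.6 in L4, and 55.2 and 92.3 in L5 and a difference of 0.95 ± 0.43. The glycine carrier Slc6a9 gave 178 and 63.9 in sham, 44.2 and 64.7 in L4, and 108 and 172 in L5, a spread within sham larger than any gap between groups.

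Vesicular carriers of transmitters also stayed under the threshold. Slc17a6, VGLUT2, loads glutamate into vesicles of most sensory neurons. Its signals were 954 and 692 in sham, 1351 and 1028 in L4, and 996 and 686 in L5. Both L4 pools lay above the other 4, and L5 and sham nearly coincided (0.03 ± 0.16). L4 exceeded sham by 0.54 ± 0.16 and L5 lay below L4 by -0.51, neither past the threshold (adjusted p = 0.148 for the second). Slc17a5, sialin, exports sialic acid from lysosomes. It gave 297 and 239.7 in sham, 239 and 253 in L4, and 211 and 54.3 in L5; the value of -1.19 ± 0.37 came mostly from the 50-day pool (-0.47 at 28 days and -1.90 at 50 days). The amine carrier Slc18a2, VMAT2, was dim with 34.0 and 39.3 in sham, 47.2 and 43.3 in L4, and 49.0 and 104 in L5 and differed by 0.91 ± 0.40, both L5 pools being highest. The acetylcholine carrier Slc18a3 was at 0.28 ± 0.24 and the GABA and glycine carrier Slc32a1 at -0.17 ± 0.42.

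Vesicular and endosomal carriers, Slc9a9 included, run on the proton gradient of the vesicular ATPase, whose subunits are no members. Of 17 tested subunit genes 12 lay below sham (70.6%, against 46.3% of all probe sets), with a median of -0.28. At an unadjusted p under 0.05 in limma's test, 6 were lower (35.3%, against 9.45% of all and 18.1% of bright probe sets) and 0 higher. Atp6v1b2 alone passed, at -1.03 ± 0.19 (adjusted p = 0.045), where 0.763% of all probe sets did. Of the 17 genes, 16 were in the bright level group. Of 10 tested genes for accessory sodium pump proteins (beta subunits and Fxyd regulators; no catalytic Atp1a gene was tested) 0 passed in limma's test (2 lower and 0 higher at an unadjusted p under 0.05; median 0.05). None of 20 ABC transporter genes (median -0.07; 2 higher and 4 lower unadjusted) and none of 5 Slco organic anion carriers (median -0.16; 1 lower unadjusted) passed.

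Cation-chloride cotransporters set neuronal chloride. Slc12a2, NKCC1, which loads chloride into sensory neurons, had its brightest probe set at 399.9 and 359.6 in sham, 331 and 304 in L4, and 359 and 234 in L5. Both L5 pools lay below both sham pools, the 28-day one by less than 1 signal unit, and the L4 pools were also below sham (-0.37 ± 0.19 in L5, -0.25 ± 0.19 in L4). Of its 4 tested probe sets 3 lay below sham, and the fourth, dim one was at 0.60. Slc12a4, the chloride extruder KCC1, gave 137 and 132 in sham, 118 and 171 in L4, and 147 and 231 in L5 and 0.43 ± 0.24. The dimmer of the 2 tested Slc12a4 probe sets lay below sham. Slc12a9, an orphan relative, gave 55.7 and 64.3 in sham, 123 and 149.9 in L4, and 71.8 and 146 in L5; its difference was 0.48 ± 0.24 in L5 and 0.98 ± 0.24 in L4, where both pools lay above both sham pools. Slc12a5, the neuronal extruder KCC2, was not tested, with signals of 3.85 to 9.65.

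Acid and base carriers split by gene. Slc4a7, a sodium-bicarbonate cotransporter, gave 137 and 89.5 in sham, 108 and 75.5 in L4, and 198 and 169.7 in L5. Both L5 pools were highest (0.70 ± 0.25, adjusted p = 0.189), and the difference from L4 was 0.92 ± 0.25 (adjusted p = 0.092). Slc4a4, the electrogenic sodium-bicarbonate cotransporter of glia, had 3 probe sets below sham. Its brightest gave 373 and 633 in sham, 422 and 287 in L4, and 286 and 429.6 in L5, with overlap (-0.45 ± 0.28). A dimmer one, singled out after its values were seen, gave 261 and 231 in sham, 193 and 223 in L4, and 139 and 107 in L5, with both L5 pools lowest and a difference of -0.93 ± 0.23 (adjusted p = 0.084). The anion exchanger Slc4a2 was at -0.32 ± 0.21. Slc9a8, a Golgi sodium-proton exchanger, was at 0.23 ± 0.18, apart from its relative Slc9a9.

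Sodium-calcium exchangers remove calcium after activity. Slc8a1, NCX1, gave 162 and 382 in sham, 222 and 357 in L4, and 348 and 402 in L5. The L5 value of 0.62 ± 0.25 came from 28 days (1.16 at 28 days and 0.08 at 50 days), where the sham pool was the lowest of the 6. Slc8a2, a neuronal paralogue, was dim at 88.5 and 117 in sham, 77.4 and 92.6 in L4, and 73.5 and 61.1 in L5, with both L5 pools lowest (-0.63 ± 0.31). Slc8a3 was at -0.28 ± 0.40, and Slc24a2, a potassium-dependent exchanger, at -0.76 ± 0.38, of which -1.28 at 28 days and -0.24 at 50 days. Of 7 tested calcium pump genes, no members, 4 lay below sham (57.1%, against 46.3% of all probe sets). At an unadjusted p under 0.05 in limma's test 3 were lower (42.9%, against 9.45% of all) and 0 higher. Atp2b3, a plasma membrane calcium pump of neurons, passed at -1.40 ± 0.24 (adjusted p = 0.028), where 0.763% of all probe sets did. No exchanger passed.

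Metal carriers were spread evenly, 8 above and 9 below sham among 17 tested genes, with a median of -0.01. Slc39a1, the zinc importer ZIP1, gave 844 and 685 in sham, 983 and 985 in L4, and 2210.5 and 866 in L5. The 28-day L5 pool stood far above every other pool and the 50-day L5 pool lay among the L4 and sham pools, so the difference of 0.85 ± 0.27 (adjusted p = 0.162) rests on 28 days (1.37 at 28 days and 0.34 at 50 days). That is the pool in which the macrophage markers summed to 5891 against 2105 in 28-day sham and the muscle markers to 3731 against 1107. The part of those cells in the Slc39a1 values was not tested. A dimmer Slc39a1 probe set gave 162 and 116 in sham, 136 and 148 in L4, and 215 and 203 in L5, with both L5 pools highest (0.54 ± 0.22). Slc30a3, a vesicular zinc carrier, was at 0.19 ± 0.19, the divalent metal carrier Slc11a2 at 0.17 ± 0.23, and the copper importer Slc31a1 at -0.38 ± 0.21.

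Phosphate enters cells through Slc20 carriers. Slc20a1, PiT1, gave 337 and 380.3 in sham, 386 and 348 in L4, and 233 and 228 in L5. Both L5 pools lay below the other 4, with a difference of -0.63 ± 0.18 (adjusted p = 0.134). Slc20a2, PiT2, was at -0.03 ± 0.22, with 0.35 at 28 days and -0.40 at 50 days. Of the sulfate carriers, Slc26a2 was dim and at 0.90 ± 0.40. Slc13a4 gave 208 and 179 in sham, 194 and 171 in L4, and 328 and 255 in L5, with both L5 pools highest (0.55 ± 0.18, adjusted p = 0.186).

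Organic ion carriers of the Slc22 and Slc47 families had 5 genes above and 4 below sham. Slc22a17, a receptor for lipocalin 2 in the organic cation carrier family, had 3 tested probe sets. One gave 2865 and 2682 in sham, 2202 and 2809 in L4, and 1824 and 1770.0 in L5, with both L5 pools lowest (-0.63 ± 0.18, adjusted p = 0.137). A dimmer one, singled out after its values were seen, gave 378 and 432 in sham, 333 and 384 in L4, and 223 and 177 in L5 and -0.96 ± 0.20 (adjusted p = 0.065), and the one on chip C was at 0.17 ± 0.18. The probe sets of this gene thus disagreed. Slc22a2, the cation carrier OCT2, was dim at 79.7 and 66.0 in sham, 47.3 and 49.1 in L4, and 21.4 and 36.3 in L5 (-1.07 ± 0.38). Slc22a5, the carnitine carrier, was at -0.10 ± 0.36 in L5 and -0.80 ± 0.36 in L4, and Slc22a18 at 0.58 ± 0.39.

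No nucleoside, vitamin or sugar nucleotide carrier passed. Slc28a1, a sodium-coupled nucleoside carrier, was at 0.52 ± 0.26 from sham and 0.69 ± 0.26 from L4 (adjusted p = 0.179). The equilibrative nucleoside carrier Slc29a1 was at -0.25 ± 0.30 and Slc29a2 at 0.29 ± 0.23. All 7 tested vitamin and folate carriers lay above sham (median 0.25), as 8447 of 15721 probe sets did, though Slc23a2 lay below it under each other scaling. In the dim group, which held 4 of the 7, 3288 of all 5241 probe sets lay above sham. Both L5 pools lay above both sham pools for 3 of the 7, against 18.3% of all probe sets and 1253 of those 5241. In limma's test 0 of the 7 carriers passed at an unadjusted p under 0.05. The riboflavin carrier Slc52a3 had the most positive value among them, with 47.6 and 28.1 in sham, 35.8 and 72.5 in L4, and 78.0 and 69.3 in L5 (0.91 ± 0.42), and the ascorbate carrier Slc23a2 was at 0.05 ± 0.22. Slc33 and Slc35 carriers supply acetyl-CoA and nucleotide sugars to the endoplasmic reticulum and Golgi. Of 16 tested genes, 10 lay below sham (62.5%, against 46.3% of all probe sets), with a median of -0.20. At an unadjusted p under 0.05 in limma's test 1 was lower (6.25%, against 9.45% of all) and 1 higher. The bright level group, where 58.4% of all probe sets lay below sham, held 7 of the 16. Slc33a1, the acetyl-CoA carrier, was at -0.47 ± 0.25, and the CMP-sialic acid carrier Slc35a1 at 0.25 ± 0.27. Slc35e1 went the other way, with 264 and 392 in sham, 326 and 399 in L4, and 354 and 582 in L5 (0.47 ± 0.18). The fatty acid carrier Slc27a1 was at 0.29 ± 0.19, and the choline carrier-like Slc44a1 at 0.42 ± 0.19. The dimmer of the 2 tested Slc27a1 probe sets lay below sham.

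Among the remaining genes the values furthest from 0 were on both sides. The urea carrier Slc14a2 gave 226 and 224 in sham, 214 and 319 in L4, and 253 and 519 in L5; its 0.70 ± 0.25 came from the 50-day pool (0.15 at 28 days and 1.26 at 50 days). Slc37a1 and Slc37a4 carry glucose 6-phosphate into the endoplasmic reticulum. Slc37a1 was dim with 59.4 and 64.0 in sham, 38.8 and 43.9 in L4, and 34.5 and 29.1 in L5 (-0.78 ± 0.40 in L5, -0.64 ± 0.40 in L4). Slc17a3, an organic anion carrier, gave 40.9 and 113 in sham, 36.0 and 64.0 in L4, and 71.6 and 199 in L5 (0.60 ± 0.34), with a higher pool mean at 50 days in each condition. The arrays of its pools disagreed. In sham array 1 gave 67.2 and 67.9 and array 2 gave 14.6 and 158. In L4 array 1 gave 13.9 and 112 and array 2 gave 58.1 and 15.7.

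**Figure D5:**
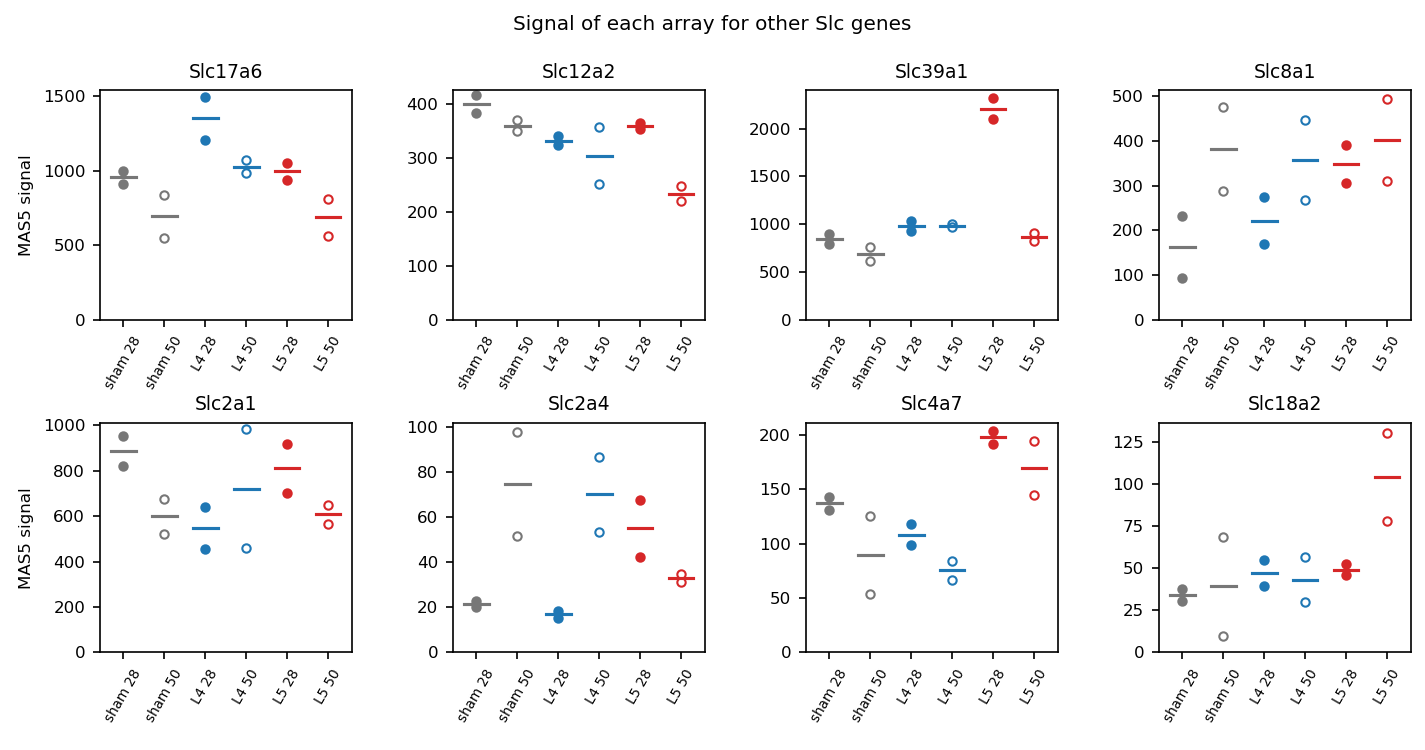
MAS5 signal (linear, from 0) on each of the 2 arrays of each pool (points; filled at 28 days, open at 50 days) and the mean of the arrays (line) for 8 further solute carrier genes. Slc17a6 is highest in L4 (1351 and 1028), and Slc39a1 is high in the 28-day L5 pool alone (2210.5).

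The L4 ganglia, whose own nerve was left intact, showed no solute carrier past the threshold, as none of 15721 probe sets passed there (0%). At an unadjusted p under 0.05, 3 member probe sets were higher (for Slc12a9, Slc17a6 and Slc3a2; 1.55% of all probe sets were) and 2 lower (for Slc22a5 and Slc34a1; 1.16% of all). The fit to 12 arrays with pool as a random block gave 0 members as well. L5 against L4, at the unadjusted threshold, had 17 members higher (7.36%, against 8.47% of all) and 29 lower (12.6%, against 10.9%).

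Time was the last comparison. Between 50 and 28 days 45 of 15721 probe sets passed (0.286%), and 0 of 231 members did, with 40 at an unadjusted p under 0.05 (17.3%, against 18.7% of all probe sets). Slc3a1 had a lower signal at 50 than at 28 days in each condition, for example 986 against 1513 in sham.

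Members that were not tested had low signals in all pools. Slc17a7, VGLUT1, lay at 4.60 to 5.90. Slc40a1, the iron exporter, had 4 probe sets with no signal above 55.0, and Slc11a1, a metal carrier of macrophage phagosomes, lay at 36.0 to 66.7. Slc30a1, Slc12a1 and Slc16a7 were likewise not tested. No detection calls were used, so these genes cannot be called absent.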

How the data were processed

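Total RNA of 6 pools was hybridised to 36 arrays. The deposited values are linear intensity signals that the authors had brought to a common trimmed mean; the submitters' processing notes name MAS5 (version not given in the sources used here). Signals were rescaled to a common mean without the highest and lowest 2% within a chip type and taken to log2 with the 20th percentile as pseudocount (12.8, 17.7 and 20.2 for A, B and C). Control probe sets and those with a mean under the 40th percentile were left out. Both arrays of a pool were averaged, and limma 3.58.1 in R 4.3.3 (lmFit, eBayes with an intensity trend) was fitted to the 6 pools with condition and day as terms, which leaves 2 residual degrees of freedom. Benjamini-Hochberg adjustment ran over the probe sets of A, B and C jointly. The scripts were tested on simulated data. The simulated spreads were drawn from limma's own fit, so that test is no measure of the power to find real changes. 3 probe sets naming several genes were left out. All 234 symbols matched a RefSeq table of GRCr8, and 193 genes had a promoter there.

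Named in any case were members that passed, the 10 most positive and 10 most negative genes with the same sign at both days, and a written list of familiar carriers; other genes named, the level groups and the motifs were picked after values were seen. Members and lists were chosen with earlier results of these data known. Alternatives covered scaling, pseudocount, filter, intensity trend, arrays, the doubly labelled array and each pool.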

Additional observations from a re-analysis of the deposited data

Results flagged for a closer look

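For 10 of 171 solute carrier genes the L5 and sham arrays lay fully apart at both days but in opposite directions (5.85%, against 995 of all 15721 tested probe sets, 6.33%), a share near that of all probe sets. The differences between the days were not tested, and each rests on 1 pool a condition and day. L5 minus sham on the log2 scale is given at 28 and then at 50 days. Higher first and lower later were the insulin-responsive glucose carrier Slc2a4 (0.95 and -0.88), the glucose 6-phosphate carrier Slc37a4 (0.44 and -1.25), Slc7a6os (0.56 and -0.24), the basic amino acid carrier Slc7a1 (0.049 and -0.58) and Slc35f1 (0.065 and -0.58). Lower first and higher later were the organic anion carrier Slc22a7 (-1.07 and 0.83), the GDP-fucose carrier Slc35c1 (-0.67 and 0.20), Slc35c2 (-0.16 and 0.20), Slc4a11 (-0.31 and 0.28) and the lysosomal peptide carrier Slc15a3 (-0.16 and 0.34). The 28-day L5 pool is the one with the high macrophage and muscle marker sums, whose part in these values was not tested.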

How the results depend on the processing

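The main result, that no solute carrier passed in L5 against sham and 2 passed in L5 against L4, depended on the settings, and the causes were not tested. For members lower in L5 against sham, 8 passed under median centring, 50 scaled to the hybridisation controls, 1 (Slc9a9) with a filter at the 60th percentile, 12 (beside 3 higher) with 12 arrays and the pool as a random block, 11 (beside 3 higher) when the array number was added as a replicate block, and 0 to 8 (0 to 2 higher) when one pool was left out. With the random block members passed at 6.49% and all probe sets at 7.09%, and with the replicate block at 6.06% and 6.21%. For L5 against L4 the count of 2 became 13 under median centring, 107 scaled to the hybridisation controls, 15 with the random block, 14 with the replicate block, 1 with the pseudocount at the 50th percentile or without the doubly labelled array, 0 under quantile normalization, with no filter, without the intensity trend or with either array alone, and 0 to 13 without one pool. Members and all probe sets passed there at 5.63% and 4.33% under median centring, 45.34% and 42.97% scaled to the hybridisation controls, 6.49% and 8.83% with the random block and 6.06% and 7.54% with the replicate block. The array number pairs no animals. Members in L4 against sham stayed at 0 in every alternative run. The number of arrays limits the precision, and dim probe sets carry the largest errors. The single genes below changed sign in L5 against sham; none of them passed as reported, and Slc17a6 did so when scaled to the hybridisation controls (adjusted p = 0.048). Under median centring, Slc11a2 -0.020, Slc16a1 -0.11, Slc17a6 -0.067, Slc23a2 -0.041, Slc2a4 -0.16 and Slc6a8 -0.13. Under quantile normalization, Slc23a2 -0.037, Slc2a1 0.047, Slc2a4 -0.14 and Slc3a2 0.0012. Scaled to the hybridisation controls, Slc11a2 -0.29, Slc12a4 -0.039, Slc16a1 -0.39, Slc17a6 -0.56, Slc18a1 -0.15, Slc18a3 -0.19, Slc1a1 -0.048, Slc23a2 -0.45, Slc27a1 -0.17, Slc29a2 -0.19, Slc2a4 -0.36, Slc2a5 -0.16, Slc30a3 -0.38, Slc35a1 -0.20, Slc44a1 -0.052, Slc6a11 -0.25, Slc6a4 -0.090, Slc6a8 -0.43 and Slc6a9 -0.23. With the pseudocount at the 50th percentile, Slc2a4 -0.013. With array 1 alone, Slc16a1 -0.15, Slc17a3 -0.14, Slc18a1 -0.089, Slc29a1 0.35, Slc2a5 -0.40, Slc32a1 0.71, Slc6a8 -0.11, Slc7a1 0.030, Slc8a2 0.13 and Slc8a3 0.0060. With array 2 alone, Slc11a2 -0.11, Slc16a3 -0.20, Slc17a6 -0.33, Slc20a2 0.13, Slc23a2 -0.066, Slc2a1 0.048, Slc37a4 0.36, Slc6a11 -0.15, Slc6a4 -0.017 and Slc6a9 -0.077. Without the doubly labelled chip B array, Slc17a6 -0.0078, Slc20a2 0.032 and Slc23a2 -0.035. Leaving out one pool at a time, the values that changed sign for some pool ran over Slc16a1 -0.10 to 0.27, Slc17a6 -0.033 to 0.084, Slc18a1 -0.47 to 1.05, Slc20a2 -0.38 to 0.32, Slc22a5 -0.60 to 0.40, Slc23a2 -0.10 to 0.20, Slc29a1 -0.64 to 0.14, Slc2a1 -0.31 to 0.21, Slc2a4 -0.92 to 0.99, Slc2a5 -0.29 to 0.79, Slc30a3 -0.056 to 0.44, Slc32a1 -0.53 to 0.18, Slc37a4 -1.10 to 0.29, Slc3a2 -0.33 to 0.23, Slc6a6 -0.57 to 0.30, Slc6a9 -0.70 to 1.14 and Slc7a1 -0.64 to 0.12.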
